A study of Mus musculus with 9 samples.

Results

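The DEAD and DEAH box RNA helicases are the protein-coding genes whose symbol starts with Ddx or Dhx followed by a digit. This rule found 52 genes, 36 Ddx and 16 Dhx, among the 30153 genes of 3 deposited count tables from mouse metaphase II (MII) oocytes, the ovulated eggs arrested in the second meiotic division. Every oocyte came from a 4-week-old female of the genotype Sycp3CreERT2/+; Rosa26nT-nG/+ on a mixed genetic background. Sycp3CreERT2 is a Cre recombinase that tamoxifen activates, driven from the locus of a meiotic prophase gene, and Rosa26nT-nG is a reporter that makes a red nuclear protein before recombination and a green one after it. All females, in all groups, were superovulated with 5 IU of PMSG and, 48 h later, 5 IU of hCG, and oocytes were taken 13 h after hCG and stripped of cumulus cells with hyaluronidase. By their fluorescence they were picked by hand into 3 groups, named GFP High, GFP Low and RFP, and each group was sequenced as 3 pooled libraries. A GFP High library held 15 to 16 oocytes, a GFP Low library 49 to 57 and an RFP library 87 to 100. How many females gave each pool, and the tamoxifen dose and time, are not given in the sources used here. The question addressed here is whether the helicase transcripts of the egg differ between oocytes with and without the Cre-induced label. For this, GFP High and GFP Low were each compared with RFP, and GFP High was also compared with GFP Low. Any 2 of these 3 comparisons share the libraries of a group.

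RNA helicases of these families use ATP to pull apart short RNA duplexes or to strip proteins from RNA, and they act at nearly every step of an mRNA's life, from splicing and export to translation and decay. Their name spells the residues of the ATP-binding motif II in the one-letter code. A fully grown oocyte is transcriptionally silent and lives on stored maternal mRNA, so that helicases which hold mRNA in a repressed state, such as Ddx6, and the germ line helicase Ddx4 (mouse vasa homologue) are familiar oocyte proteins.

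Coding sequences around motif II are shown for the genes on which the results below turn, together with a near-identical pair and a gene whose motif goes against its symbol. They are 48-base windows of the sense strand from GENCODE M21 transcripts (GRCm38), 5′ to 3′, with the 4 codons of the DEAD or DEAH run in capitals. The run was searched in frame in coding sequences only, as GAT or GAC, then GAA or GAG, then GCN, then GAT or GAC for DEAD, and with CAT or CAC as the last codon for DEAH.
Ddx4: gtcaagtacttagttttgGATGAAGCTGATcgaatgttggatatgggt
Ddx3x: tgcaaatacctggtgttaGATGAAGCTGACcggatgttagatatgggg
Ddx46: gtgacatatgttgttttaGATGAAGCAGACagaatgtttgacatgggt
Ddx6: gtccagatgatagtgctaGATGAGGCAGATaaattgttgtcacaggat
Ddx19a: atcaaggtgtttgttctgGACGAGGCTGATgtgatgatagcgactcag
Ddx19b: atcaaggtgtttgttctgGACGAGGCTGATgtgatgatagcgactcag
Ddx41: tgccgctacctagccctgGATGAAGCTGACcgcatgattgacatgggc
Ddx56: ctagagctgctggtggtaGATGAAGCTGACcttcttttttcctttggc
Dhx16: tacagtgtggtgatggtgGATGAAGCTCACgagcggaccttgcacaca
Ddx11: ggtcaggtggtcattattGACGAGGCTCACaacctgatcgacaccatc

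The DEAD run was present in 27 of the 36 Ddx genes and the DEAH run in 8 of the 16 Dhx genes, against 0.748% and 0.340% of 21778 protein-coding genes searched the same way. Ddx11, which encodes a DNA helicase of the sister chromatid cohesion machinery, carried the DEAH run. Dhx29 held a DEAD run at bases 3352 to 3363 of its 4095 coding bases. The search took a run at any place in frame, so a run found is not by itself motif II, and that of Dhx29 was not shown to be. Of the others, 8 Ddx and 7 Dhx genes held neither run, Ddx28 and Dhx36 among them, which says only that these letters are not in the transcript searched. The DEAD runs of all helicase genes together, Dhx29 included, were spelled in 13 ways. GATGAAGCAGAC was the commonest with 6 occurrences, 1 of them a second run in Ddx10. The windows of Ddx4 and Ddx3x differed at 11 of 48 bases and those of Ddx4 and Ddx6 at 19. Ddx19a and Ddx19b did not differ at any base of the window. Their coding sequences were 93.1% identical over 1434 aligned bases, with an identical stretch of 275 bases, so that how the counting divided reads between these 2 neighbours is uncertain. Processed pseudogenes near-identical to Ddx18 (Gm16433, 99.3% over 1984 bases), Ddx5 (Gm12183, 98.5% over 1848 bases) and Ddx50 (Gm8228, 96.5% over 2197 bases) may likewise share reads with their parents. Exons of 9 helicase genes overlap a gene on the other strand, most in Ddx49 (29.8% of its exon length, Homer3) and Ddx39 (17.4%, Adgre5), and no source used here says that counting used strand.

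Libraries held 19381677 to 27746256 counted reads. All 8 oocyte markers, among them Zp3, Gdf9 and Mos, were at 61.6 CPM (a gene's count scaled to the size of its library) or more in every library. Their sum was 7260.2 to 8031 CPM for GFP High libraries, 6558 to 6883 for GFP Low libraries and 6635 to 7192 for RFP libraries. The GFP High libraries thus lay above the other 6, and the part of this in the helicase values was not tested. The 12 cumulus and granulosa markers together came to 8.92 to 41.8 CPM (GFP High), 12.9 to 35.3 CPM (GFP Low) and 16.3 to 51.0 CPM (RFP). Cyp19a1 gave 6.85 to 18.1 CPM of this. Most of the highest sums, 51.0 CPM in RFP replicate 2 and 41.8 CPM in GFP High replicate 1, thus came from the other markers. Only 1 of the 12 was at 1 CPM or more in all libraries. Fshr, Foxl2 and Amh, which define granulosa cells, were at 0 in at least 1 library. They are only part of the list of 12, and their zeros do not show that cumulus cells were absent. The part of cumulus and granulosa cells in any helicase value was not tested. Libraries were made from RNA captured by its poly-A tail, so that less RNA and a shorter tail cannot be told apart, nor can a lower level in every oocyte of a pool and in some of them.

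Helicase transcripts made up a steady share of the egg's mRNA. Summed over the 52 genes, and scaled by edgeR's TMM factors over the 9 libraries, they came to 6539, 6290.3 and 6690.0 CPM for the GFP High libraries, 6525, 6692 and 6470.0 CPM for those of GFP Low, and 6705, 6569 and 6516 CPM for those of RFP. The 3 groups overlapped, with means of 6506 ± 202, 6563 ± 116 and 6597 ± 97.6 (SD, n = 3). Of the 52 genes, 50 were at 1 CPM or more in all 9 libraries, 17 averaged 100 CPM or more and 3 averaged 500 CPM or more. Those 3, Ddx3x, Ddx19a and Ddx46, held 42.1 to 44.3% of the helicase sum in every library. By role, 6 translation and export helicases gave 37.1% of the sum, 12 splicing helicases 30.1%, 16 ribosome biogenesis helicases 17.0%, 4 germ cell and storage helicases 3.13%, 2 mitochondrial helicases 2.47%, 5 double-stranded RNA, innate sensing and G-quadruplex helicases 1.45% and the 7 others 8.72%.

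**Figure D1:**
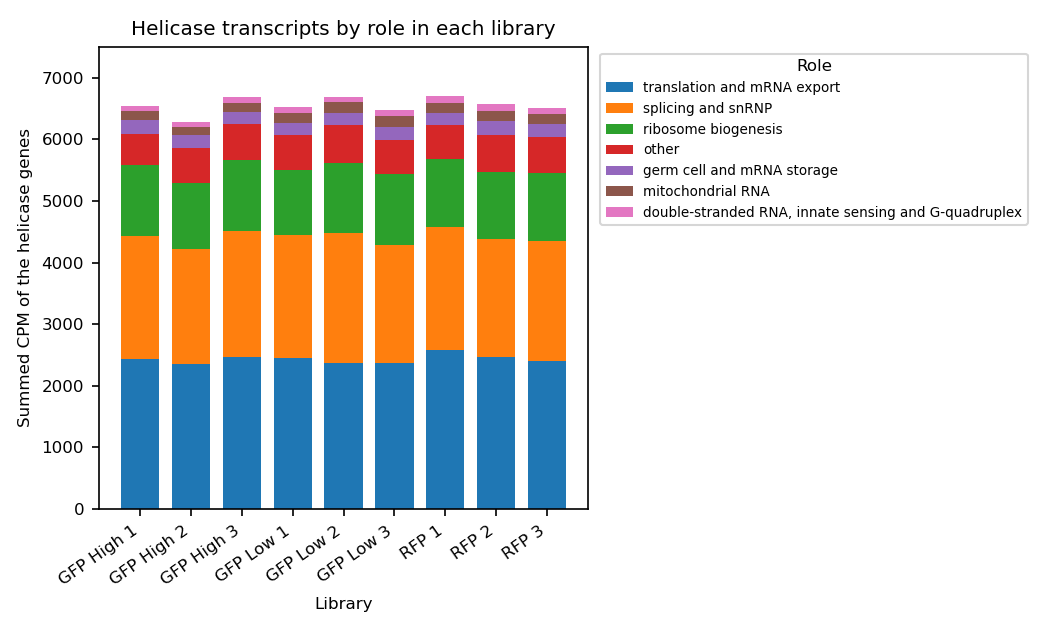
Summed CPM of the helicase genes in each of the 9 libraries (bars, from 0), divided by role (colours). The total lies between 6290.3 and 6705 CPM in every library, and translation and splicing helicases fill most of each bar.

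Levels of different genes were compared per length, as CPM per kilobase of gene length. Ddx19a stood first at 278 CPM per kilobase and Ddx3x second at 252, then came Ddx46 at 95.6, Ddx5 at 64.0, Ddx18 at 53.1 and Ddx24 at 52.9, and all other tested genes lay between 0.844 (Dhx35) and 38.7 (Dhx8). The authors' FPKM values gave the same order for all 52 genes. Ddx4 ranked 11 at 34.8 CPM per kilobase and Ddx6 ranked 40 at 3.32. Neighbours in the middle of this order cannot be ranked beyond their spread: Ddx28, Dhx38, Dhx32 and Ddx4 lay at 37.7, 37.4, 34.8 and 34.8 and overlapped between libraries. Dhx58 (LGP2, a cytoplasmic sensor of viral RNA) and Ddx43 (a helicase of testis and tumours) were at or near 0 with at most 0.433 and 0.0514 CPM in any library, and were too low to be tested.

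**Figure D2:**
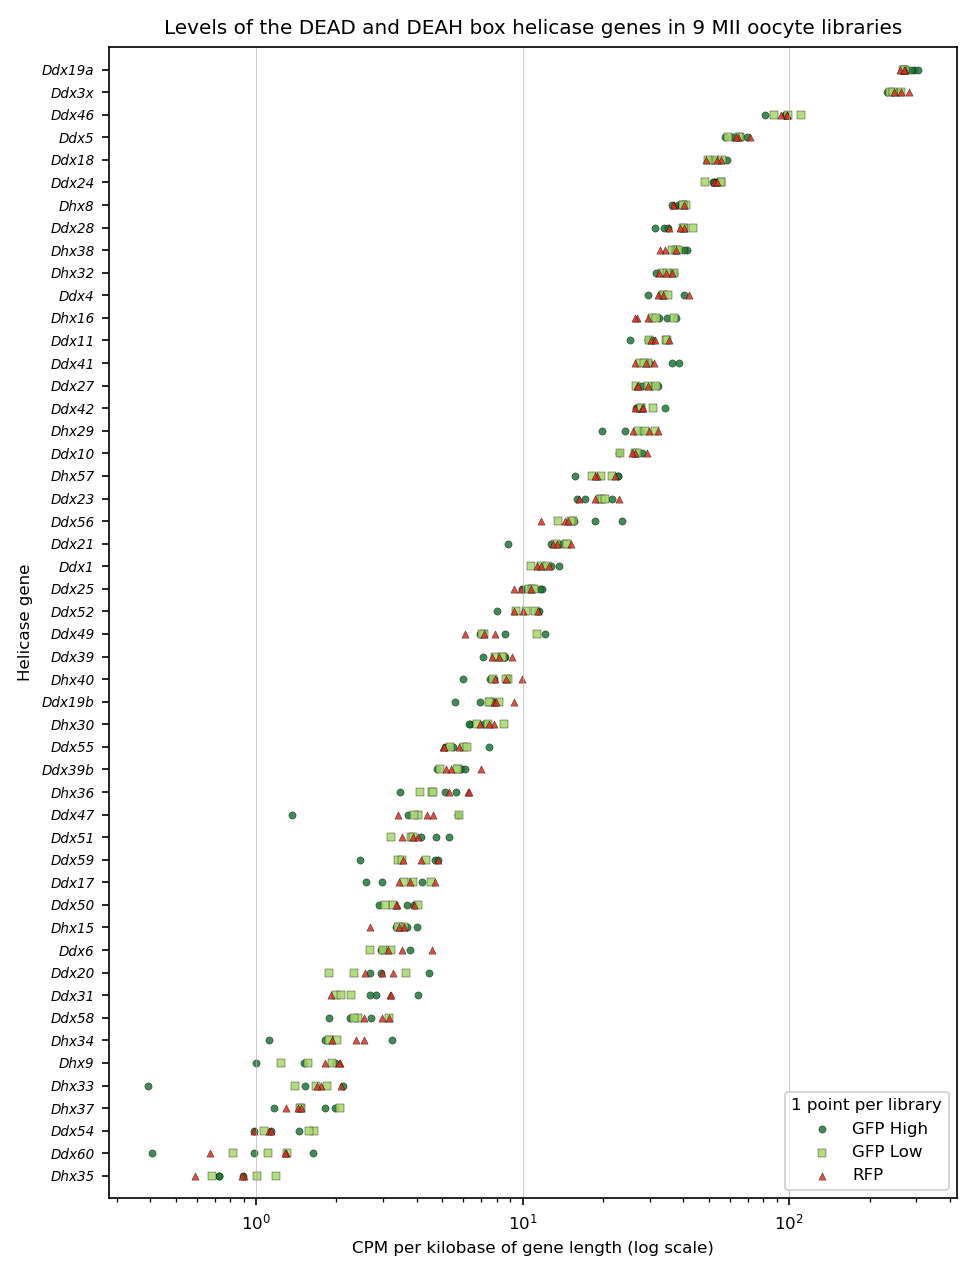
CPM per kilobase of gene length (log axis) of the 50 helicase genes detected in all libraries, 1 point per library, coloured by group. Ddx19a and Ddx3x, at 278 and 252 on average, lie apart from the rest, and 1 GFP High point, replicate 2, of Ddx47, Dhx33 and Ddx60 lies to the left of the other libraries.

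None of the 50 tested helicase genes passed the threshold in any comparison. With edgeR's quasi-likelihood test on each pair of groups and Benjamini-Hochberg adjustment over all genes tested, the lowest adjusted p of a helicase was 0.997 for GFP High versus RFP, 1.000 for GFP Low versus RFP and 0.998 for GFP High versus GFP Low. The background was also close to nil, at 0.0135% of 14829 genes, 0.0197% of 15199 and 0% of 14785, respectively. DESeq2 likewise called 0 helicases in each comparison. At an unadjusted p under 0.05 there were 2, 2 and 4 of 50 helicases, where the whole table gave 4.09%, 2.62% and 3.77% of genes. Those of the first comparison were both higher in GFP High, where 2.27% of genes were higher and 1.81% lower at this p. In the second, 1 was higher and 1 lower in GFP Low (1.28% and 1.34% of genes), and in the third 3 were higher and 1 lower in GFP High (1.85% and 1.92%). The median log2 fold change of the 50 genes was -0.01, 0.01 and 0.01 in these comparisons, beside -0.01, -0.00 and -0.00 over all genes tested. Single genes ran from -0.44 to 0.52, from -0.42 to 0.42 and from -0.33 to 0.60, and none was past 2-fold. By the authors' deposited tables, too, 0 helicases had an adjusted p under 0.05, the lowest being 0.256, 0.567 and 0.680, respectively.

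The intervals of the fold changes limit how large a difference these libraries could hide. The 95% interval lay within 2-fold either way for 47 of 50 helicases in GFP High versus RFP, 50 in GFP Low versus RFP and 44 in GFP High versus GFP Low, compared with 50.3%, 65.7% and 50.3% of all genes tested. Within 1.5-fold it lay for 24, 39 and 32 helicases, compared with 29.8%, 47.4% and 31.1% of genes. The median SE was 0.17, 0.11 and 0.16 log2 units for the helicases and 0.32, 0.22 and 0.33 for all genes. Among genes at 20 CPM or more, where 39 helicases lie, it was 0.14, 0.10 and 0.13 for helicases and 0.15, 0.11 and 0.15 for all.

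**Figure D3:**
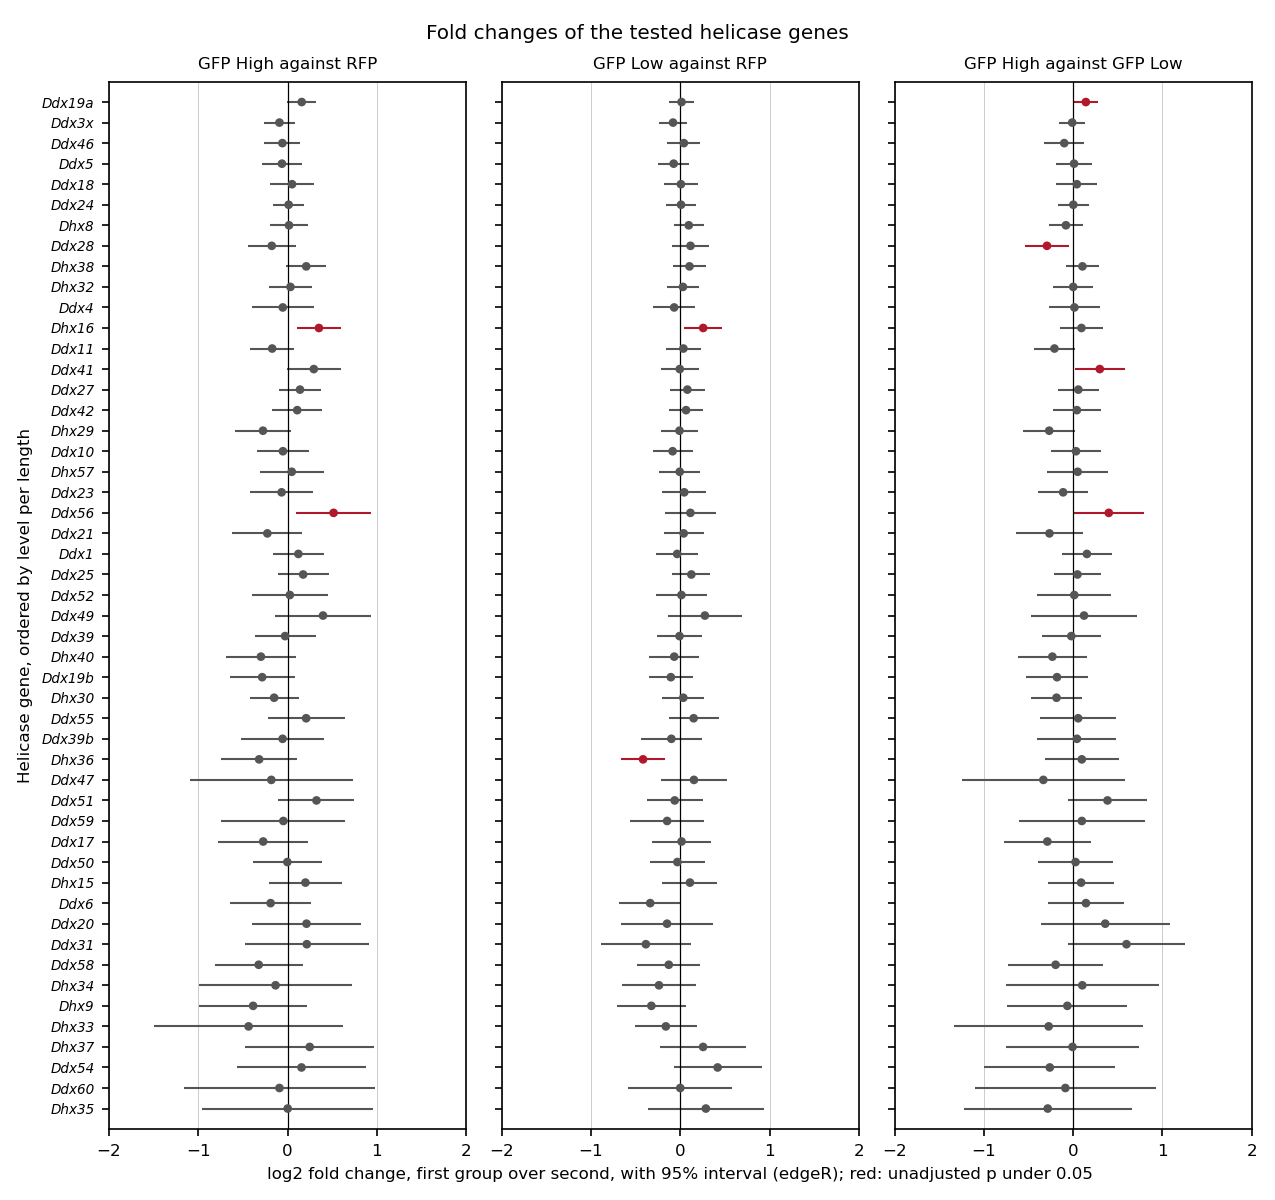
log2 fold change (point) with its 95% interval (line) from edgeR for the 50 tested helicase genes, ordered by level per length, in the 3 comparisons. Red marks an unadjusted p under 0.05, which 2, 2 and 4 genes had, and intervals widen toward the low genes at the bottom.

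Among germ cell and storage helicases, Ddx4 (ENSMUSG00000021758, chr13:112598333-112652475, minus strand), the vasa homologue of germ granules, was read at 121, 88.6 and 99.7 CPM (GFP High), 101, 102 and 106 CPM (GFP Low), and 101, 127 and 97.2 CPM (RFP). The 3 groups overlapped, and GFP Low was the tightest. Its log2 fold change was -0.05 ± 0.15 (SE) for GFP High versus RFP, -0.07 ± 0.11 (SE) for GFP Low versus RFP and 0.01 ± 0.13 (SE) for GFP High versus GFP Low, with adjusted p of 0.997, 1.000 and 0.998 by edgeR's quasi-likelihood test. The interval of the first reached from -0.40 to 0.29. Ddx6 (ENSMUSG00000032097, chr9:44604892-44640731, plus strand), which represses and stores mRNA in cytoplasmic granules, was at 24.2, 30.4 and 23.7 CPM (GFP High), 24.1, 25.8 and 21.5 CPM (GFP Low), and 28.4, 25.2 and 36.8 CPM (RFP). RFP libraries spanned both the middle and the top of the range, and 1 of them, replicate 3, stood above the other 8. Its log2 fold change was -0.19 ± 0.20 (SE) for GFP High versus RFP, -0.34 ± 0.16 (SE) for GFP Low versus RFP (adjusted p = 1.000, edgeR) and 0.14 ± 0.19 (SE) for GFP High versus GFP Low. Ddx25, a helicase best known from testis, was detected throughout at 64.6 to 82.3 CPM.

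Several proteins that hold mRNA together with Ddx6 had more abundant transcripts than Ddx6 itself. Lsm14b was at 349 CPM per kilobase, Eif4enif1 at 162 and Lsm14a at 69.3, against 3.32 for Ddx6, while the decapping scaffold Edc3 was near 0 (0.0603). Of all 32 listed partners and cofactors, 31, 31 and 30 were tested in the 3 comparisons. EdgeR called 0 in each, and DESeq2 also called 0. At an unadjusted p under 0.05 edgeR gave 0 in each, where 4.09%, 2.62% and 3.77% of all genes tested passed. Magoh, a core protein of the exon junction complex that clamps Eif4a3 on RNA, was the highest partner at 539.5 CPM per kilobase. The smallest p among them was that of the translation factor Eif4g2, at -0.25 ± 0.12 (SE) in GFP High versus RFP (adjusted p = 0.997, edgeR).

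Translation and export helicases held the most abundant genes. Ddx19a (ENSMUSG00000015023, chr8:110974996-110997800, minus strand), which remodels mRNA as it leaves the nuclear pore, was at 871, 902 and 849 CPM (GFP High), 794, 807 and 790.2 CPM (GFP Low), and 771, 804 and 799 CPM (RFP). All 3 GFP High libraries lay above all 6 others, and GFP Low and RFP overlapped. The log2 fold change was 0.16 ± 0.07 (SE) for GFP High versus RFP (adjusted p = 0.997, edgeR), 0.01 ± 0.07 (SE) for GFP Low versus RFP and 0.14 ± 0.06 (SE) for GFP High versus GFP Low (adjusted p = 0.998, edgeR). The first and last share the GFP High libraries. Its neighbour Ddx19b (ENSMUSG00000033658, chr8:111003188-111031751, minus strand) was at 7.61 CPM per kilobase and read 52.6, 37.7 and 46.7 CPM (GFP High), 50.7, 50.4 and 55.1 CPM (GFP Low), and 52.7, 53.6 and 62.4 CPM (RFP), where GFP High lay below RFP with no overlap, opposite in direction to Ddx19a. Ddx3x (ENSMUSG00000000787, chrX:13280970-13294052, plus strand), an X-linked helicase of translation initiation, was at 1297, 1229 and 1354 CPM (GFP High), 1379, 1261 and 1293 CPM (GFP Low), and 1482, 1387 and 1308 CPM (RFP). These groups overlapped, with the highest value in an RFP library. Its log2 fold change was -0.09 ± 0.08 (SE), -0.08 ± 0.07 (SE) and -0.01 ± 0.07 (SE) in the same order of comparisons, and the interval of the first was -0.26 to 0.08. D1Pas1, the relative of Ddx3x whose coding sequence was 87.4% identical, was read at 0.269 to 1.70 CPM.

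The cofactors of Ddx19 were also present, Nup214 at 116 CPM per kilobase and Gle1 at 38.9. Both were tested and neither was called. Dhx29, which helps the ribosome scan structured leaders, was at 119 to 168 CPM (GFP High), 163 to 188 CPM (GFP Low) and 156 to 193 CPM (RFP). Its groups overlapped. The mRNA export helicases Ddx39 and Ddx39b averaged 42.3 and 21.2 CPM, with all 3 groups overlapping.

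Splicing helicases were led by Ddx46 (ENSMUSG00000021500, chr13:55635027-55681256, plus strand), which acts as the branch site is recognised, at 704, 592 and 710.0 CPM (GFP High), 719, 804 and 639.9 CPM (GFP Low), and 715, 717 and 679 CPM (RFP). Its groups overlapped, and the log2 fold change was -0.06 ± 0.09 (SE) for GFP High versus RFP, 0.04 ± 0.09 (SE) for GFP Low versus RFP and -0.10 ± 0.10 (SE) for GFP High versus GFP Low. Ddx5, a splicing and transcription cofactor, was at 354, 332 and 403 CPM (GFP High), 376, 373 and 339.7 CPM (GFP Low), and 412, 372 and 366 CPM (RFP). Dhx8, which releases the spliced mRNA, was at 193, 183 and 197 CPM (GFP High), 202, 207 and 201 CPM (GFP Low), and 186, 184 and 202 CPM (RFP). Dhx38, needed for the second splicing step, was at 189, 206 and 200.3 CPM (GFP High), 181, 186 and 189.7 CPM (GFP Low), and 170.5, 162 and 187 CPM (RFP). Ddx5 overlapped between all groups, Dhx8 was lower in GFP High than in GFP Low without overlap, and Dhx38 lay above RFP in all GFP High libraries.

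Dhx16 (ENSMUSG00000024422, chr17:35879819-35892670, plus strand), the helicase that activates the spliceosome, had the smallest p of the family in GFP High versus RFP. It was read at 142, 154 and 133 CPM (GFP High), 125, 129 and 151 CPM (GFP Low), and 110.4, 109 and 121 CPM (RFP). RFP lay below all 6 GFP libraries, and GFP High and GFP Low overlapped. The log2 fold change was 0.35 ± 0.11 (SE) for GFP High versus RFP (adjusted p = 0.997, edgeR) and 0.26 ± 0.10 (SE) for GFP Low versus RFP (adjusted p = 1.000, edgeR). Both differences rest on the same 3 RFP libraries. Ddx41 (ENSMUSG00000021494, chr13:55530410-55536658, minus strand), a late spliceosome helicase, was at 97.8, 104 and 80.1 CPM (GFP High), 74.1, 79.5 and 76.8 CPM (GFP Low), and 77.9, 83.2 and 71.0 CPM (RFP). GFP High lay above GFP Low without overlap, by 0.30 ± 0.13 (SE) log2 units (adjusted p = 0.998, edgeR), and overlapped RFP. Of the 12 splicing helicases, 8 had a positive and 4 a negative log2 fold change in GFP High versus RFP, with a median of 0.06.

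**Figure D4:**
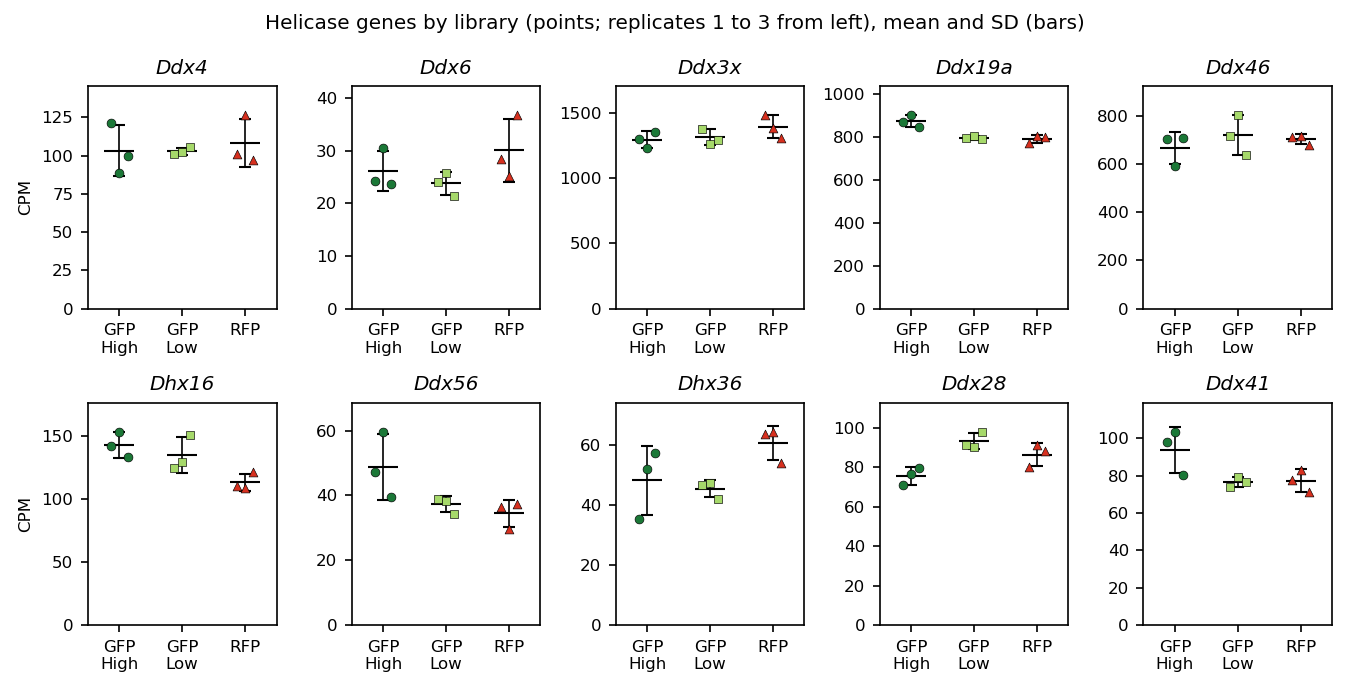
CPM in each library (points, replicates 1 to 3 from left) of 10 helicase genes, with the mean and SD (n = 3) of each group as bars, on axes from 0. The Dhx16 points of RFP (109 to 121 CPM) lie below all GFP points, and the Ddx19a points of GFP High (849 to 902 CPM) lie above all others.

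Ribosome biogenesis helicases numbered 16, all tested. Ddx18 was at 145, 129 and 128 CPM (GFP High), 131, 139 and 123 CPM (GFP Low), and 138, 121 and 133 CPM (RFP), and Ddx24 at 444, 428 and 432 CPM (GFP High), 398, 455 and 457 CPM (GFP Low), and 435, 429 and 443 CPM (RFP), both nucleolar proteins and both with overlapping groups. Ddx56 (ENSMUSG00000004393, chr11:6258919-6267772, minus strand), a nucleolar helicase of the large subunit, was at 47.4, 59.8 and 39.4 CPM (GFP High), 39.0, 38.4 and 34.4 CPM (GFP Low), and 36.4, 29.8 and 37.5 CPM (RFP). GFP High lay above RFP and above GFP Low without overlap, and the spread within GFP High was the widest. Its log2 fold change was 0.52 ± 0.19 (SE) for GFP High versus RFP (adjusted p = 0.997, edgeR), the largest positive value of the family in that comparison. In GFP High versus GFP Low it was, with Ddx28, Ddx41 and Ddx19a, among the 4 helicases at an unadjusted p under 0.05, with an adjusted p of 0.998 (edgeR). The median log2 fold change of the 16 was 0.09 for GFP High versus RFP, 0.03 for GFP Low versus RFP and 0.03 for GFP High versus GFP Low, with 11 positive and 5 negative in each. These comparisons share libraries, so the counts are not independent, and signs were not counted over all genes.

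The 2 mitochondrial helicases had their lowest sum in GFP High, but only Ddx28 was apart there by itself. Ddx28 (ENSMUSG00000045538, chr8:106009621-106011882, minus strand), a single-exon gene whose protein helps build the mitochondrial ribosome, was at 71.0, 76.6 and 79.7 CPM (GFP High), 91.5, 90.4 and 98.2 CPM (GFP Low), and 80.3, 91.3 and 88.2 CPM (RFP). GFP High lay below the other 6 libraries, narrowly so against RFP. The log2 fold change for GFP High versus GFP Low was -0.29 ± 0.11 (SE) (adjusted p = 0.998, edgeR). Dhx30, which acts on mitochondrial transcripts, was at 66.7 to 76.3 CPM (GFP High), 71.9 to 90.7 CPM (GFP Low) and 73.5 to 83.0 CPM (RFP), with all groups overlapping. Summed with Dhx30, Ddx28 gave 144 to 147 CPM (GFP High), 163 to 189 CPM (GFP Low) and 163 to 168 CPM (RFP). For Ddx28, 3.18% of the exon length overlaps Dus2 on the other strand.

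Dhx36 (ENSMUSG00000027770, chr3:62468013-62507004, minus strand), which unwinds G-quadruplexes, had the smallest p of the family in GFP Low versus RFP. It was read at 35.5, 52.1 and 57.4 CPM (GFP High), 46.8, 47.2 and 42.1 CPM (GFP Low), and 63.7, 64.6 and 54.2 CPM (RFP). GFP Low lay below RFP without overlap, while GFP High overlapped both. The log2 fold change was -0.42 ± 0.12 (SE) for GFP Low versus RFP (adjusted p = 1.000, edgeR). The 5 double-stranded RNA, innate sensing and G-quadruplex helicases summed to 81.5 to 99.4 CPM (GFP High), 83.6 to 92.7 CPM (GFP Low) and 101 to 115 CPM (RFP). Without Dhx36 the sums were 29.5 to 46.6, 41.5 to 45.5 and 46.4 to 51.2. GFP High then overlapped RFP, while GFP Low still lay narrowly below RFP. Ddx58, the viral RNA sensor RIG-I, was at 13.2 to 22.3 CPM and Dhx9, which unwinds double-stranded RNA, at 9.61 to 19.9. Of the 7 other genes, Dhx32, a helicase of little known function, was the highest per length, at 132, 150.4 and 154 CPM (GFP High), 139, 155 and 145 CPM (GFP Low), and 144, 152 and 136 CPM (RFP), with all groups overlapping.

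Counting genes whose groups do not overlap gave 8 of 50 helicases in GFP High versus RFP (12.1% of all genes tested), 2 in GFP Low versus RFP (7.72%) and 7 in GFP High versus GFP Low (11.7%). In GFP High versus RFP, 5 were higher (Dhx16, Ddx56, Ddx19a, Dhx38 and Ddx51) and 3 lower (Ddx19b, Dhx40 and Ddx28), where all genes gave 4.6% higher and 7.49% lower. For GFP Low versus RFP only Dhx16 (higher) and Dhx36 (lower) did not overlap, against 3.5% and 4.22% of genes. In GFP High versus GFP Low, 5 were higher (Ddx41, Ddx19a, Ddx56, Ddx31 and Ddx51) and 2 lower (Ddx28 and Dhx8), against 4.49% and 7.22%. With 50 genes these counts lie near the background.

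Replicates within a group differed most in GFP High. The median coefficient of variation (CV) over the 50 helicases was 14.3% for GFP High, 7.80% for GFP Low and 8.60% for RFP, beside 27.4%, 14.3% and 14.4% over 14221 genes tested in all comparisons. These sets differ in level. At 100 CPM or more (17 helicases) it was 7.94%, 6.20% and 6.29%, beside 9.52%, 5.60% and 7.34% of genes at that level. At 20 to 100 CPM (22 helicases) it was 14.1%, 7.48% and 9.31%, beside 16.6%, 9.03% and 9.76%. At 1 to 20 CPM (11 helicases) it was 28.3%, 20.8% and 11.9%, beside 45.9%, 22.8% and 20.4%. The CV was largest in GFP High for 31 of 50 helicases (62.0%), as for 68.1% of genes. Single genes stood out there, chosen after their values were seen. Ddx47, a helicase of early ribosome assembly, was at 38.1, 9.08 and 24.8 CPM in the GFP High libraries, against 22.8 to 38.2 CPM in the other 6 libraries. Dhx33, also of ribosome production, was at 15.3, 3.93 and 21.3 CPM in the GFP High libraries, and the antiviral gene Ddx60 at 8.54, 3.53 and 14.2 CPM in the GFP High libraries. GFP High replicate 2 was the lowest library for all 3 of them. It was the lowest of the 9 for 18 of 50 helicases and for 31.0% of genes. Between the highest and the lowest of all libraries, 28 of 50 helicases differed by less than 1.5-fold and 9 by more than 2-fold. The same was not counted over all genes, so these numbers do not set helicases apart. GFP High libraries also came from the fewest oocytes, so that group and pool size cannot be told apart in these spreads.

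**Figure D5:**
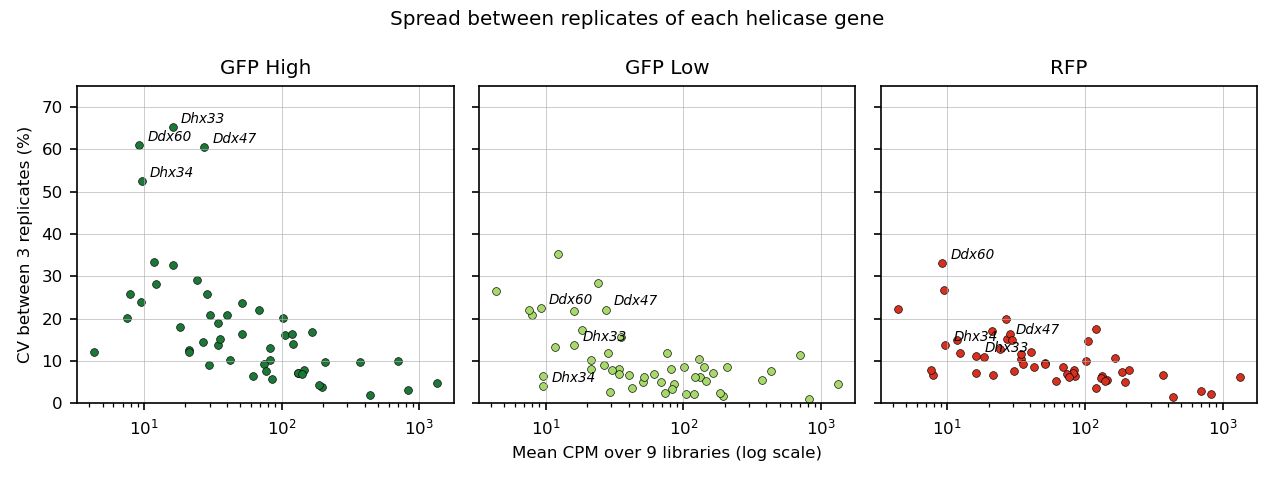
Coefficient of variation over 3 replicates (percent) against mean CPM over 9 libraries (log axis) for the 50 helicase genes, 1 panel per group. Ddx47, Dhx33, Ddx60 and Dhx34 lie above 50% in GFP High only, and in the other groups every gene is below 40%.

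Among helicases that the naming rule leaves out, no gene was called either, but their summed level was not alike. It was 2898 to 2976 CPM for GFP High libraries, 3050 to 3135 for GFP Low libraries and 2988 to 3270 for RFP libraries. GFP High thus lay below all libraries of the other groups, narrowly so against RFP, and this difference was not tested. Of 25 listed, 24 were found, and Upf1 of nonsense-mediated decay (92.5 CPM per kilobase) and Eif4a3 of the exon junction complex (62.2) were the highest. EdgeR tested 21, 22 and 21 of them and called 0 in each comparison, and DESeq2 also called 0. At an unadjusted p under 0.05 edgeR gave 0, 1 and 2, where 4.09%, 2.62% and 3.77% of all genes tested passed. The 2 were lower in GFP High than in GFP Low, as were 1.92% of all genes at this p. The smallest p was that of Eif4a1, the helicase of the cap-binding complex, at 205, 184 and 191 CPM (GFP High), 255, 232 and 259 CPM (GFP Low), and 185, 233 and 199.6 CPM (RFP). GFP High lay below GFP Low without overlap, at -0.35 ± 0.09 (SE) log2 units (adjusted p = 0.998, edgeR).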

How the data were processed

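Poly-A RNA from 9 pools of mouse MII oocytes, 3 pools in each of 3 groups, was sequenced from both fragment ends, per the labels. The submitters' processing notes name fastp, HISAT2 2.0.5, featureCounts 1.5.0-p3, DESeq2 1.20.0 and the build mm10, without saying which step each served. The authors deposited 3 tables, 1 per pair of groups, which hold raw counts per gene, FPKM values, log2 fold changes and p-values with their adjusted p-values. Shared libraries held identical counts in the tables, which were joined by gene identifier, and a gene absent from a table was given a count of 0 in the libraries known from no other table (178 genes). The signal columns deposited beside them are the counts divided by a size factor of each library, computed within each table, and the size factors were not used. The authors' own fold changes and p-values are named as such where printed.

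Counts were tested with edgeR 4.0.16 in R 4.3.3 (filterByExpr, TMM scaling, glmQLFit and glmQLFTest), 6 libraries at a time without covariates, with Benjamini-Hochberg adjustment over all genes tested and a threshold of 0.05. Levels are CPM scaled by TMM over all 9 libraries, divided by the deposited gene length where genes are compared. The fit was tested on simulated data with the same spread in both groups and changes only in genes at 20 CPM or more. That test does not cover lower genes or the wider spread of the GFP High libraries. Sequences, exons and coordinates came from GENCODE M21 on GRCm38, in which 51 of the 52 helicase genes had the coordinates of the deposited tables.

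Fold changes are given for Ddx4, Ddx6, the 3 helicases with the highest level per length and, in each comparison, the 3 with the smallest p. Library values are given for Ddx4, Ddx6, the 10 highest per length and genes singled out in a role. Helicases, roles and lists were chosen with earlier results of these data known. Replicate libraries differed beyond counting noise, as shown by chi-square values of 13.8 to 57.6 per degree of freedom for pairs within a group. No source used here says that pools came from separate females, so p-values measure the spread between these pools. Alternatives were DESeq2 1.42.0, its size factors, no scaling, other filters on low counts, all 9 libraries in 1 fit, a replicate block and leaving out each library.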

Additional observations from a re-analysis of the deposited data

How the results depend on the processing

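Helicase genes called stayed at 0 in all 42 fits, and the lowest adjusted p of a helicase in any of them was 0.255 (DESeq2, GFP High against RFP). Over all genes, GFP High against RFP gave 2 calls, with 12 by DESeq2, 16 without a filter on low counts, 4 with the replicate block and 0 to 2 when 1 library was left out (0 when it was GFP High 1, RFP 2, GFP High 3 or RFP 3). GFP Low against RFP gave 3 calls, with 10 by DESeq2, 34 without the filter and 2 to 3 with 1 library left out. GFP High against GFP Low gave 0 calls, with 4 by DESeq2, 16 without the filter and 0 to 1 with 1 library left out (1 without GFP High 3).

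Helicases at an unadjusted p under 0.05 numbered 1 to 6, 1 to 4 and 0 to 7 over the alternatives of these comparisons, in that order, the 6 and the 7 without GFP High 3, the 6 also with all 9 libraries in 1 fit, and the 4 without GFP Low 1. With the replicate block they were 4, 2 and 0. Deviations of same-numbered libraries correlated at -0.0652 to 0.00934, -0.113 to 0.116 and -0.0577 to 0.0955, so no pairing by replicate number was detected. With only 3 libraries per group, such values cannot decide whether pools of equal number were collected together. Leaving out 1 library moved the median log2 fold change of the helicases between -0.055 and 0.018 in GFP High against RFP, between -0.017 and 0.036 in GFP Low against RFP, and between -0.050 and 0.029 in GFP High against GFP Low.

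Of 273 named fold changes refitted, 11 reversed sign, all for Ddx3x, Ddx4, Ddx19a or Ddx46. Leaving out 1 library took Ddx4 in GFP High against RFP to between -0.19 and 0.073, in GFP Low against RFP to between -0.14 and 0.059 and in GFP High against GFP Low to between -0.13 and 0.11. In the same order, Ddx46 ran from -0.11 to 0.017, from -0.045 to 0.12 and from -0.18 to -0.023, and Ddx19a in GFP Low against RFP from -0.0098 to 0.027. Ddx3x in GFP High against GFP Low ran from -0.049 to 0.027 and was 0.000997 by DESeq2 and 0.000506 with its size factors. The cause was not tested. Dhx35, the lowest tested helicase per length, averaged 4.37 CPM, and how far depth limits such genes was not tested.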
